A study of Bos taurus with 8 samples.

Results

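The CC chemokines described here are 10 genes, CCL2, CCL3, CCL4, CCL5, CCL8, CCL16, CCL20, CCL24, CCL26 and CCL28. They were found by symbol among the array's own probe names, which gave 22 of 43653 noncontrol probes and 10 of 17349 named genes. Endometrium was biopsied on day 7 of the cycle, on the side of the corpus luteum, from 8 cows that had received 25 mL of fluid in each uterine horn on day 1, and its RNA was read on 1-colour bovine arrays with 60-base probes. In 4 cows the fluid held 0 mM methylglyoxal, and in the other 4 it held 5 mM methylglyoxal, a reactive aldehyde that forms as a side product when cells break down glucose. Each sample was a separate cow per the labels, so the p-values below measure the spread between cows, and all 8 cows had the injection and the biopsy. Estrus was day 0, and there was no group without an injection.

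Chemokines are small secreted proteins that direct leukocytes into tissue through receptors on their surface, and the CC family is named for neighbouring cysteines near the start of the mature protein. CCL2 and CCL8 are known to attract monocytes, CCL3, CCL4 and CCL5 attract T cells, natural killer cells and macrophages, CCL24 and CCL26 attract eosinophils through CCR3, CCL20 attracts CCR6-bearing cells, and CCL28 is made by mucosal epithelium. In the endometrium, chemokines are known for bringing in leukocytes after mating, infection or injury and around implantation.

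The probe sequences printed below come from the array files and show which transcript stretch the values stand for. The CCL3 probe carries the letters TGCTGC in capitals, neighbouring cysteine codons of the kind that give the family its name. One further member probe, of CCL20, holds these letters, so 2 of the 22 do, against 4.98% of all noncontrol probes on either strand.
CCL3: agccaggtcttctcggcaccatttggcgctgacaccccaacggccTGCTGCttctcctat
The next 3 probes share the letters TGGGT, in capitals, which 3 of the 22 member probes and 10.1% of all noncontrol probes hold on either strand. The CCL2 and CCL5 stretches are cut after tga and tag, the stop codons that end their known coding sequences.
CCL2: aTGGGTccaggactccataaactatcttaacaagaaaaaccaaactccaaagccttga
CCL5: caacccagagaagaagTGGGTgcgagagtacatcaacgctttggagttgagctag
CCL26: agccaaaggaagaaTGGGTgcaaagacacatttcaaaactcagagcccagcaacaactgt
CCL8, the gene on which the comparison below turns, has a pair of probes that lie apart on the chromosome, and the first 30 bases of each are given.
CCL8 first probe: cttaggaaatcagtgctcctgtaagtggat
CCL8 second probe: ggaaaatcttatttatttcttcccaacctt
For CCL20, 2 probes cover the same stretch and differ at 5 of 46 shared bases. The 30 bases below hold 2 of these differences, in capitals, and the values of this pair differed as described further on.
CCL20 probe from an Ensembl transcript: agagtcaaAaggatgtaaaaatggatgctC
CCL20 probe from a RefSeq transcript: agagtcaaGaggatgtaaaaatggatgctT

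On the build Btau_3.1 used by the array, 6 of the 10 genes lay on chromosome 19. The probes of CCL4, CCL3, CCL16 and CCL5 fell in that order between chr19:13801571-13977591, a span of 176 kb. Those of CCL8 and CCL2 fell within chr19:15404030-15665769, a span of 262 kb. The eotaxin genes CCL26 and CCL24 were probed at chr25:36113675-36113734 and chr25:36141574-36141633, 28.0 kb from end to end. CCL20 was probed within chr2:120591126-120594176 and CCL28 within chr20:33382892-33383234. One probe of CCL3 and 1 of CCL20 run along the chromosome against the gene's other probes, and neither was well above background on any array. Exon, intron and untranslated region annotation of this build was not used here.

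Levels are log2 processed intensities minus the log2 of the same array's 75th percentile, so that 0 is the signal at that percentile. They compare a probe between cows, not probes with each other. A signal is called well above background by the scanner software. A probe was tested where that held on at least 4 of the 8 arrays, and a difference was called at an adjusted p under 0.05, with Benjamini-Hochberg adjustment over all 31108 tested probes in limma. The 75th percentiles ran from 1032 to 1456 intensity units, 68.3% to 73.2% of probes were well above background, and no noncontrol spot was saturated. No probe of the array was called in this comparison (0 of 31108, 0%). The smallest adjusted p was 0.913, and 595 probes had an unadjusted p under 0.05 (1.91%). All differences below are therefore values that did not pass the test.

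CC chemokine transcripts were measurable in every biopsy. Of the 10 genes, 7 had a probe well above background on all 8 arrays, namely CCL2, CCL3, CCL4, CCL5, CCL8, CCL16 and CCL24. CCL28 was above background on 7 arrays, CCL26 on 2 and CCL20 on 1. Of the 22 probes, 13 were above background on all arrays and 4 on none. The filter kept 15 probes of 8 genes, and CCL20 and CCL26 did not pass it.

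All 8 tested genes had a lower mean in the 5 mM group, against 48.4% of all 13045 tested genes. So did all 15 of their probes, against 46.9% of tested probes. With the normexp correction all 8 genes stayed lower, but the second CCL2 probe was 0.06. The median difference over the 8 genes was -0.84, beside 0.01 over all tested genes. At least 2-fold lower values were found for CCL4, CCL8 and CCL28, 3 of 8, against 4.85% of tested genes. An unadjusted p under 0.05 was reached by CCL4 and CCL8, 2 of 8, against 1.08% of tested genes on the lower side. Without replicate 2 of 0 mM these counts were 1 and 1 of 8, both CCL8, and CCL4 was -0.94 (unadjusted p 0.0926 in limma). Without replicate 1 of 5 mM CCL4 had an unadjusted p of 0.0962, and CCL8 was the only gene under 0.05. Leaving out replicate 4 of either group also left CCL8 alone under 0.05, as did the normexp correction and array weights. Without replicate 3 of 5 mM CCL4 had an unadjusted p of 0.0788 in limma, while CCL8 (0.0397) and CCL5 (0.0391) were under 0.05. Genes at least 2-fold lower were 1 of 8 with the normexp correction and 2 of 8 with array weights. They were 4 of 8 without replicate 1 of 0 mM or without replicate 2, 3 or 4 of 5 mM. Only CCL8 had every cow of the 5 mM group below every cow of the 0 mM group, 1 of 8, against 0.56% of tested genes. Adjusted p ran from 0.913 to 0.945 over the 8 genes. The 8 genes were read in the same 8 cows, so their directions are not independent counts. The 10 genes were also chosen with earlier results of these data known, so the shares set beside all tested genes are descriptions only. Of the 5 other tested CC chemokines, 2 were lower and 3 higher in 5 mM. In bulk tissue fewer cells of a type and less RNA per cell cannot be told apart.

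**Figure D1:**
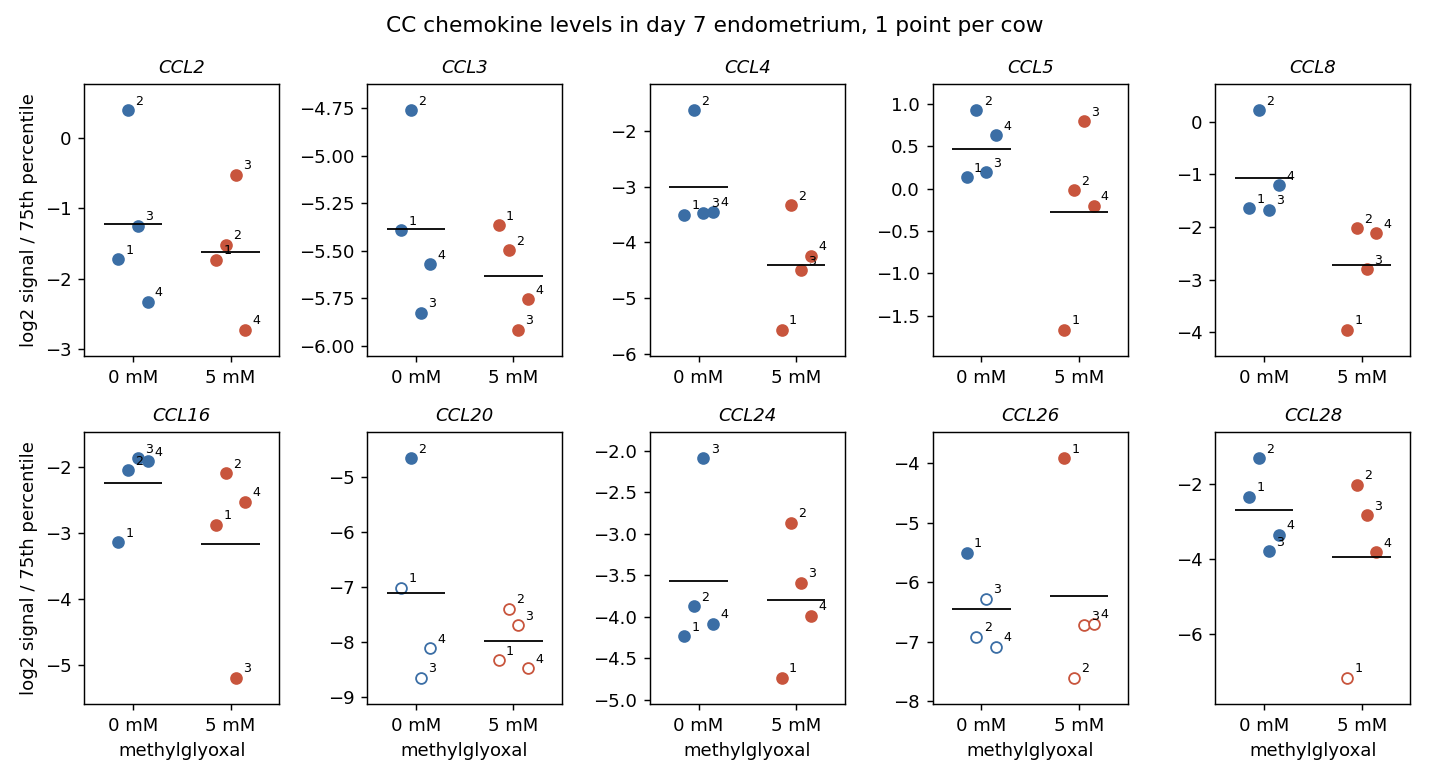
Log2 level relative to the array's 75th percentile (y axis, a separate scale for each gene) for the 10 CC chemokine genes in the 0 mM and 5 mM groups, with 1 point per cow, its replicate number beside it, open points where the signal was not well above background and a bar at the group mean. In CCL8 the 4 cows of 5 mM, at -3.95 to -2.02, sit below the 4 cows of 0 mM, at -1.67 to 0.22, while the groups of the other genes overlap.

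CCL8, also called monocyte chemoattractant protein 2, had the largest difference among the 8 genes. Its first probe read -1.64, 0.22, -1.67 and -1.21 in replicates 1 to 4 of 0 mM and -3.95, -2.02, -2.80 and -2.11 in replicates 1 to 4 of 5 mM. Replicate 2 of 0 mM was the highest cow and replicate 1 of 5 mM the lowest, and the groups did not overlap. The group means were -1.07 ± 0.89 and -2.72 ± 0.89 (SD, n = 4 each). The difference was -1.65 ± 0.56 (SE), which is 3.14-fold lower, with an unadjusted p of 0.0180 and an adjusted p of 0.913 in limma. The gap between the lowest 0 mM cow and the highest 5 mM cow was 0.35.

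The second CCL8 probe, printed above beside the first, read -3.04, -1.25, -2.86 and -2.74 in 0 mM and -4.94, -3.36, -4.14 and -3.40 in 5 mM. It again left no overlap, against 0.524% of tested probes, with the same cows at the top and the bottom. Its difference was -1.49 ± 0.49 (unadjusted p 0.0168 and adjusted p 0.913 in limma), and the probes correlated with Pearson's r of 0.995 over the 8 arrays. Both read the same RNA of the same cows, so they are no replicates of each other.

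CCL2, monocyte chemoattractant protein 1, was probed within the same 262 kb as CCL8 and did not share its order of cows. It read -1.72, 0.40, -1.24 and -2.33 in 0 mM and -1.72, -1.51, -0.52 and -2.72 in 5 mM. The groups overlapped over most of their range, with replicate 2 of 0 mM highest and replicate 4 of 5 mM lowest. The difference was -0.40 ± 0.65 (unadjusted p 0.558 in limma). It was 0.14 without replicate 2 of 0 mM, -0.03 without replicate 4 of 5 mM, -0.76 without replicate 4 of 0 mM or replicate 3 of 5 mM, and -0.14 with the slide that carried the array as a block. A second CCL2 probe gave -0.04 ± 0.72, and 0.06 with the normexp correction, with r = 0.80 between both probes.

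CCL3, CCL4 and CCL5 differed among themselves. CCL4, macrophage inflammatory protein 1 beta, read -3.50, -1.62, -3.47 and -3.45 in 0 mM and -5.57, -3.33, -4.50 and -4.24 in 5 mM. Only replicate 2 of 5 mM reached into the 0 mM range, and 3 of the 0 mM cows lay at -3.50 to -3.45 while replicate 2 stood well above them. The means were -3.01 ± 0.93 and -4.41 ± 0.92 (SD, n = 4 each). The difference was -1.40 ± 0.58, or 2.64-fold lower, with an unadjusted p of 0.0415 and an adjusted p of 0.913 in limma. With another background correction (normexp), it was -0.67. A second CCL4 probe gave -0.87 ± 0.38 (unadjusted p 0.0532 in limma), and one more, made from an expressed sequence tag, was above background on no array.

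CCL5, also called RANTES and abundant in cytotoxic T and natural killer cells, read 0.13, 0.93, 0.20 and 0.63 in 0 mM. In 5 mM it read -1.67, -0.02, 0.79 and -0.20. Replicate 1 of 5 mM lay far below the other cows and replicate 3 of 5 mM within the 0 mM range. The difference was -0.74 ± 0.48 (unadjusted p 0.163 in limma), and -1.10 without replicate 3 of 5 mM (unadjusted p 0.0391 in limma). It was -0.28 without replicate 1 of 5 mM and -0.47 with array weights, which count arrays that depart from the fit for less. The other CCL5 probes gave -1.01 ± 0.50 and -0.96 ± 0.55, with r of 0.95 with the first probe for each.

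CCL3, macrophage inflammatory protein 1 alpha, had the narrowest range of the 8 genes, 1.15 between its highest and lowest cow. Its readings were near the lowest signal called well above background, which lay between -6.95 and -6.21 on the 8 arrays. The probe with TGCTGC in capitals read -5.39, -4.76, -5.83 and -5.57 in 0 mM and -5.36, -5.50, -5.91 and -5.75 in 5 mM. The groups overlapped except for replicate 2 of 0 mM, which stood above all other cows. The difference was -0.25 ± 0.25 (unadjusted p 0.354 in limma), -0.07 with the normexp correction and -0.16 with slide as a block. Without replicate 2 of 0 mM it was -0.04, without replicate 3 of 0 mM -0.39 and without replicate 3 of 5 mM -0.15. Of its other probes, 1 was above background on that cow's array only and 1 on none.

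CCL16, known as a ligand for monocytes and lymphocytes and made mainly in liver, read -3.14, -2.05, -1.86 and -1.91 in 0 mM and -2.88, -2.09, -5.20 and -2.53 in 5 mM. Replicate 3 of 5 mM was lowest by a wide margin, and replicate 1 of 0 mM lay below 3 of the 4 cows of 5 mM. The difference was -0.93 ± 0.67 (unadjusted p 0.199 in limma), -0.26 without replicate 3 of 5 mM and -0.48 with the normexp correction. The second probe gave -0.61 ± 0.65, and -0.11 with the normexp correction, with the same cow lowest at -6.54.

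**Figure D2:**
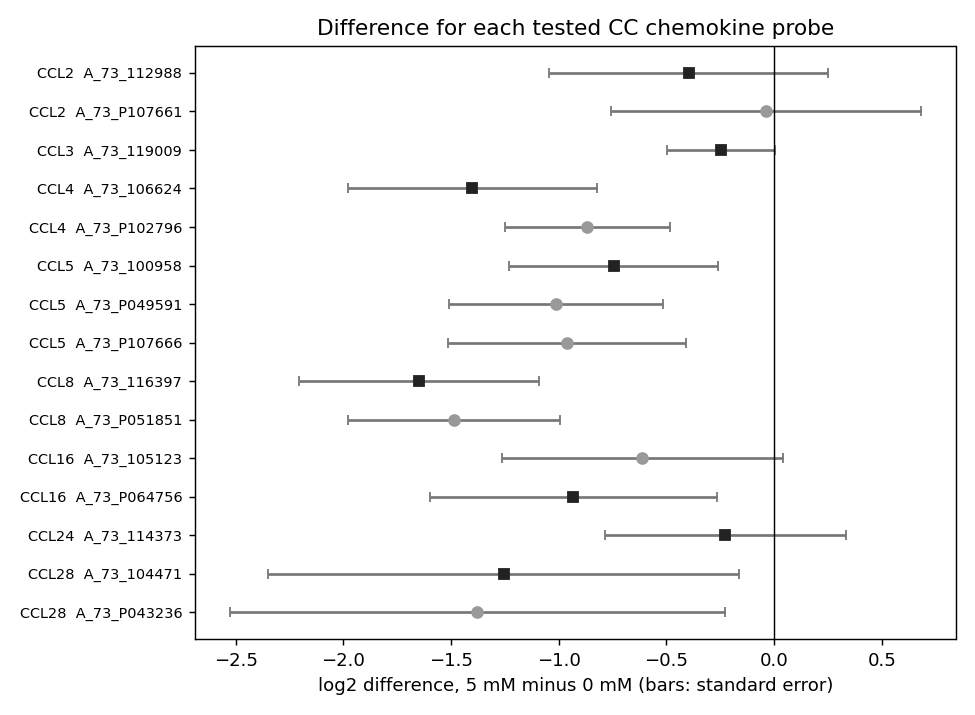
Log2 difference, 5 mM minus 0 mM (x axis), with its standard error for the 15 tested CC chemokine probes (y axis), squares for the probe with the highest mean of each gene and circles for its other probes. All 15 lie below 0, from -1.65 for the first CCL8 probe to -0.04 for the second CCL2 probe. The error bars of some reach 0, and a bar that misses 0 is not a test. Only the first CCL4 probe and both CCL8 probes had an unadjusted p under 0.05 in limma, and no probe was called after adjustment.

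CCL24 and CCL26 encode eotaxins 2 and 3. CCL24 read -4.23, -3.87, -2.09 and -4.09 in 0 mM and -4.74, -2.87, -3.59 and -3.99 in 5 mM. The groups overlapped, replicate 3 of 0 mM alone being high. The difference was -0.23 ± 0.56 (unadjusted p 0.697 in limma), 0.27 without that cow, 0.09 without replicate 1 of 5 mM, -0.54 without replicate 2 of 5 mM, 0.01 with slide as a block and -0.08 with array weights. CCL26 was well above background only on replicate 1 of 0 mM, at -5.50, and replicate 1 of 5 mM, at -3.92. The other 6 arrays read -7.61 to -6.28 and were not well above background. Both arrays with CCL26 were on slide 1, with no other array of the series, and they were among the 3 with the highest smooth muscle markers. The part of slide and of muscle in this was not tested. Of 6 eosinophil markers listed, IL5RA alone was matched to a probe, and it was above background on no array.

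CCL20, the ligand of CCR6, was at or near the limit of the array in all but 1 cow. The probe from an Ensembl transcript read -4.65 on replicate 2 of 0 mM, the array on which it was well above background, and -8.65 to -7.01 on the other 7. The RefSeq probe that differs from it at the capitals above was above background on no array, also not in that cow, where it read -9.17. No fold is given, since the signal of 1 cow in 1 group cannot be set against a measured level.

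CCL28, known from mucosal epithelium, where it draws antibody-secreting cells through CCR10, had the widest range of the 8 genes, 5.84 between highest and lowest cow. It read -2.34, -1.32, -3.80 and -3.35 in 0 mM and -7.16, -2.02, -2.83 and -3.81 in 5 mM. Replicate 1 of 5 mM was not well above background, and the other 3 cows of 5 mM spanned nearly the same range as 0 mM. The difference was -1.26 ± 1.09, or 2.39-fold lower (unadjusted p 0.285 in limma). It was -0.19 without replicate 1 of 5 mM, -1.90 without replicate 2 of 5 mM, -0.79 without replicate 2 of 0 mM, -0.48 with the normexp correction and -0.33 with array weights. The second probe gave -1.38 ± 1.15, with r = 0.996 between both probes.

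The same cows stood at the ends of the range in gene after gene. Replicate 2 of 0 mM was highest for 6 of the 8 genes and 12 of the 15 probes. Replicate 1 of 5 mM was lowest for 5 of the 8 genes and 9 of the 15 probes, and replicate 3 of 5 mM for 2 genes. Without replicate 2 of 0 mM the median difference of the 8 genes was -0.69, with 7 of 8 lower. Without replicate 1 of 5 mM it was -0.35, with 7 of 8 lower. It was -0.48 with the normexp correction and -0.48 with array weights, with all 8 lower under each. CCL8 was -1.22 without the first of these cows and -1.24 without the second.

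**Figure D3:**
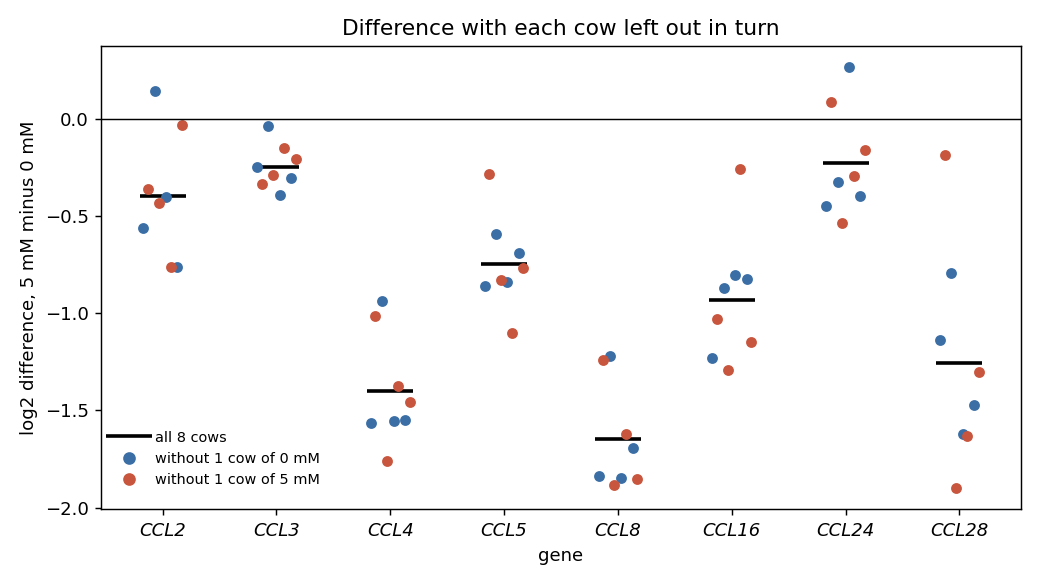
Log2 difference, 5 mM minus 0 mM (y axis), of the 8 tested CC chemokine genes with all 8 cows (bars) and with each cow left out in turn (points, blue for a cow of 0 mM and red for a cow of 5 mM). CCL8 stays between -1.88 and -1.22, whereas CCL28 runs from -1.90 to -0.19, and CCL2 and CCL24 cross 0.

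The arrays lay on 3 slides, which the file headers give, with both doses on each. Within slide 1, which held 1 cow of each dose, 6 of the 8 genes were lower in 5 mM with a median of -1.15. Within slide 2, with 2 cows of 0 mM and 1 of 5 mM, 6 were lower with a median of -0.39, and within slide 3, with 1 and 2, 5 were lower with a median of -0.30. CCL8 was lower in each, with differences of -2.31, -1.30 and -1.25, and so was CCL4, with -2.07, -0.79 and -0.92. CCL5 was lower in each as well, with -1.80, -0.58 and -0.33. CCL28 differed by -4.82 on slide 1, 0.54 on slide 2 and 0.03 on slide 3. The other values above 0 were those of CCL3 (0.03) and CCL16 (0.26) on slide 1, CCL24 on slides 2 (0.11) and 3 (0.30), and CCL2 (0.70) on slide 3.

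The biopsies differed in the tissue they held. All 10 epithelium and all 10 smooth muscle markers were well above background on all 8 arrays. Marker lists are given as the mean log2 level of the markers after each was centred on the 8 arrays. The epithelium mean lay between 0.20 and 0.82 on 7 arrays and at -3.21 on replicate 1 of 5 mM, the cow with the lowest CCL28, CCL4, CCL5, CCL8 and CCL24. All 10 epithelium markers had a lower mean in 5 mM, and their summed level, on the linear scale where 1 is the 75th percentile, was 51.4 to 73.2 in 0 mM and 4.30 to 64.2 in 5 mM. Smooth muscle means were 1.44 on replicate 1 of 0 mM, 2.88 on replicate 1 of 5 mM and 1.71 on replicate 3 of 5 mM, and -1.74 to -0.88 on the other 5. All 10 muscle markers had a higher mean in 5 mM, with summed levels of 31.9 to 284 in 0 mM and 49.0 to 613 in 5 mM. Without these 3 muscle-rich arrays, a choice made after seeing the data, all 8 genes remained lower with a median of -0.53. CCL8 was then -1.18 (unadjusted p 0.0868 in limma), CCL4 -0.94 (0.207), CCL5 -0.69 (0.0378), CCL2 -1.06, CCL16 -0.37 and CCL28 -0.10, with 3 cows of 0 mM and 2 of 5 mM left.

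Markers of lymphocytes and macrophages mostly had lower values in 5 mM alongside the chemokines, while those of neutrophils and mast cells were mixed, beside 48.4% lower among all tested genes. Of 11 tested T and natural killer cell markers 9 were lower, with NCR1 above background on too few arrays to be tested, and the list mean was highest on replicate 2 of 0 mM at 0.66 and lowest on replicate 1 of 5 mM at -1.35. Their summed level was 6.50 to 9.14 in 0 mM and 6.72 to 8.37 in 5 mM. All 10 macrophage and dendritic cell markers were lower, with summed levels of 8.89 to 31.6 in 0 mM and 6.93 to 17.2 in 5 mM. All 6 tested B and plasma cell markers were lower too, with summed levels of 1.13 to 20.1 and 1.27 to 8.74, while CD79B and TNFRSF17 were not tested. Of 6 tested neutrophil markers 3 were lower, with summed levels of 0.64 to 2.08 in 0 mM and 0.70 to 1.06 in 5 mM. Stroma (4 of 8 lower), endothelium (3 of 7) and mast cell markers (2 of 4) lay on both sides, and all 7 tested markers of ciliated cells were lower. The part of these cell types in the chemokine differences was not tested.

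**Figure D4:**
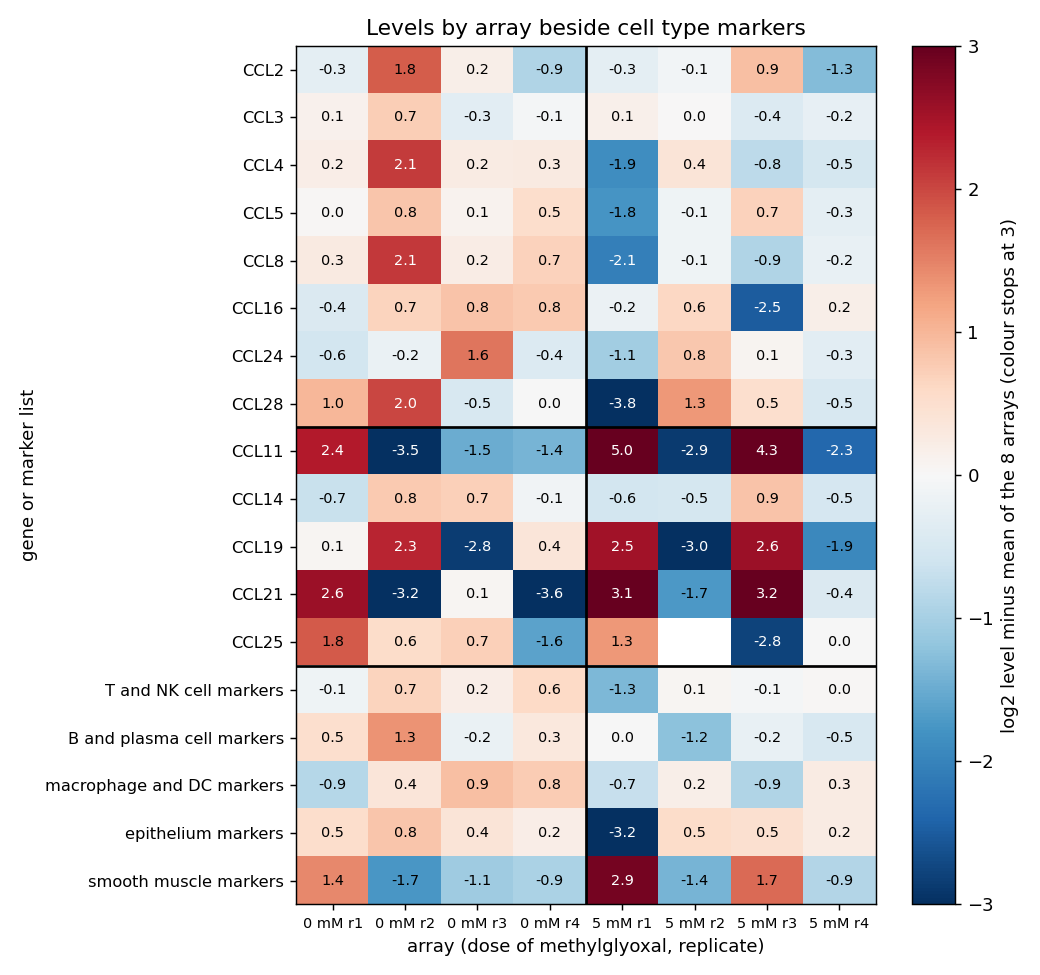
Log2 level minus the mean of the 8 arrays (colour and printed value, the colour stopping at 3) for the tested CC chemokines, the other tested CC chemokines and the marker list means (y axis) on each array (x axis), with an empty cell where a spot was left out. Replicate 2 of 0 mM is the highest array in 6 of the top 8 genes, and CCL11 is high on the 3 arrays whose smooth muscle means are 1.44 to 2.88.

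Over the 8 arrays CCL4 and CCL8 followed each other most closely among the member pairs, with r = 0.97, although they lie in separate parts of chromosome 19. CCL5 and CCL28 gave 0.86 and CCL4 and CCL28 0.83, pairs that share the low replicate 1 of 5 mM. CCL2 and CCL8, probed within the same 262 kb of chromosome 19, gave 0.39, and CCL3 and CCL4 0.58. The lowest were CCL3 and CCL24 at -0.37 and CCL2 and CCL16 at -0.22. All these points share the same 8 libraries and their scaling, so the correlations are descriptions.

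Among 11074 genes above background on all arrays, the 3 most like CCL8 were H2B (0.98), ASTE1 (0.98) and CCL4 (0.97), and those most like CCL4 were CCL8 (0.97), ASTE1 (0.96) and C25H16orf54 (0.96). CCL5 was most like CTSW (0.98), which encodes cathepsin W of cytotoxic lymphocytes, and CRACR2B (0.97) was also among its 3 closest. CCL2 was most like EAF2, NUDCD1 and ALDH2 (0.95 to 0.93), and CCL3 like CADM1, STYX and RGP1 (0.95 to 0.94). CCL16 was most like LRRC16B, WIPI1 and TMEM242 (0.95 to 0.94), and CCL24 like PPA2, ECHDC1 and SGK1 (0.96 to 0.94). These are the top values out of 11074 over 8 points that share libraries and scaling, and they carry no test.

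The receptors of the family had lower means in 5 mM as well. Of the 13 described here, 11 were on the array by name, and all 7 that could be tested were lower, with a median of -0.53, against 48.4% of tested genes. An unadjusted p under 0.05 was reached by 2 of the 7, against 1.08%, and none was called after adjustment. ACKR1, the atypical receptor of venules and red cells that takes up CCL2 and CCL5, read -6.02, -5.28, -5.58 and -5.45 in 0 mM and -6.30, -6.34, -6.44 and -6.22 in 5 mM. Every cow of 5 mM was below every cow of 0 mM, 1 of the 7 receptors, against 0.56% of tested genes, though 1 of them was not well above background. The difference was -0.74 ± 0.18 (unadjusted p 0.0032 and adjusted p 0.913 in limma), and with the normexp correction it was -0.09. Its other probe was above background on no array.

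CCRL2, which holds chemerin and signals little, differed by -0.53 ± 0.23 (unadjusted p 0.0474 in limma) with overlap. Its second probe, well above background on all 8 arrays, gave -0.46 (unadjusted p 0.0819 in limma). For the first probe, the unadjusted p in limma was 0.0590 with quantile normalization, 0.0798 with slide as a block and 0.0303 with the normexp correction. Without replicate 3 of 0 mM the first probe gave -0.35 (unadjusted p 0.110 in limma), which leaves ACKR1 alone of the pair under 0.05. CCR7, the receptor of CCL19 and CCL21, differed by -1.28 ± 0.69 and was -6.96 on replicate 1 of 5 mM against -5.17 to -2.77 elsewhere. Without that cow the difference was -0.67, and with the normexp correction -0.46.

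CCR1, shared by CCL3, CCL5 and CCL16, differed by -0.24 ± 0.43, and CCR3, the eotaxin receptor, by -0.43 ± 0.54. CCR4 differed by -0.50 ± 0.33, and ACKR2, a decoy receptor that removes inflammatory CC chemokines, by -0.75 ± 0.63. CCR4 was well above background on only 4 arrays, 2 of 0 mM and 2 of 5 mM. ACKR2 was well above background on 5 arrays, 3 of 0 mM and 2 of 5 mM. The group means of both therefore include readings not well above background. With the normexp correction CCR4 was -0.14 and ACKR2 -0.27. Without replicate 2 of 0 mM, CCR1 was -0.01, CCR3 -0.0025 and CCR4 -0.22, whereas without replicate 1 of 0 mM CCR1 was -0.66 (unadjusted p 0.0481 in limma) and CCR3 -0.85. Without replicate 1 of 5 mM CCR3 was -0.11, and without replicate 3 of 5 mM CCR1 was -0.07. Within slide 1, where 6 of the 7 receptors were lower, CCR1 was 0.81. Without replicate 1 of 0 mM ACKR2 was -0.35, and without replicate 4 of 5 mM ACKR2 was -0.32. CCR2, the main receptor of CCL2 and CCL8, was not well above background on any array, and neither were CCR8 and CCR9. ACKR4 was above background on 2 arrays. CCR6 and CCR10, the receptors of CCL20 and CCL28, were not matched to a probe by name and were not analysed here.

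**Figure D5:**
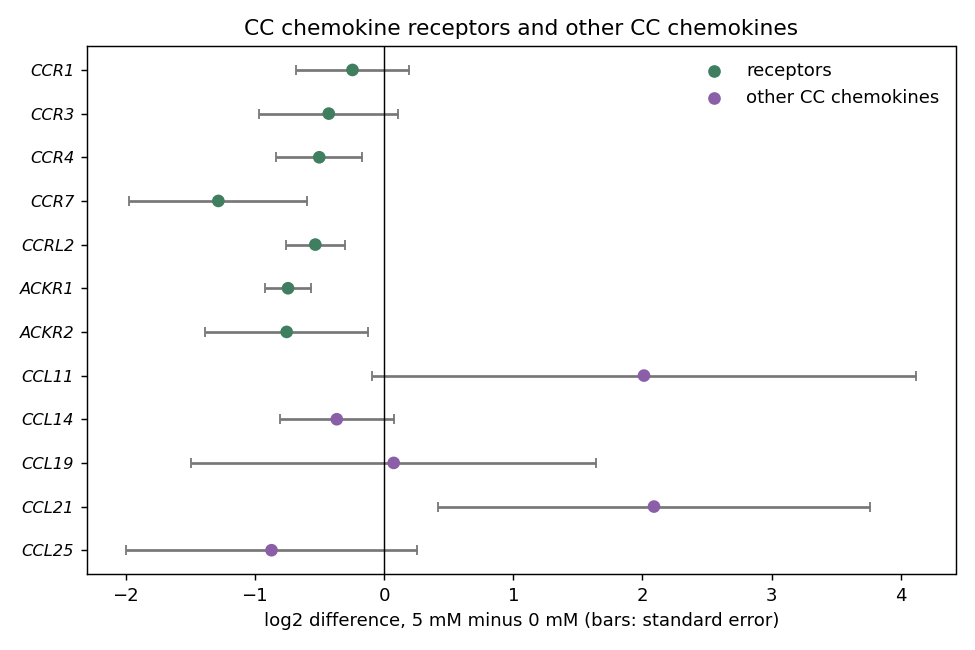
Log2 difference, 5 mM minus 0 mM (x axis), with its standard error for the 7 tested receptors (green) and the 5 other tested CC chemokines (purple). The receptors all lie below 0, from -1.28 to -0.24, while CCL11 and CCL21 lie at 2.01 and 2.09 with wide errors.

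CC chemokines beyond the 10 did not share one direction. Of 10 listed, 7 were on the array and 5 were tested, 2 lower and 3 higher in 5 mM. CCL11, eotaxin 1, read -1.27, -7.15, -5.13 and -5.03 in 0 mM and 1.31, -6.50, 0.65 and -5.99 in 5 mM. It was high on the 3 muscle-rich arrays and low on the other 5, in both groups, and was well above background on 6 of the 8 arrays. The difference was 2.01 ± 2.11, 0.70 without replicate 1 of 5 mM, 0.92 without replicate 3 of 5 mM and 3.30 without replicate 2 of 5 mM. Without the 3 muscle-rich arrays it was -0.48. CCL21, a lymph node homing chemokine, differed by 2.09 ± 1.67 and read -1.64 and -1.56 on replicates 1 and 3 of 5 mM and -2.21 on replicate 1 of 0 mM, with the other cows at -8.33 to -4.71. It was well above background on 2 arrays of 0 mM and 4 of 5 mM, so its 0 mM mean includes readings not well above background. With cows left out in turn it ran from 1.25, without replicate 4 of 0 mM, to 3.29, without replicate 1 of 0 mM. Without the 3 arrays CCL21 was 1.16, and with the normexp correction 0.79.

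CCL19, the partner of CCL21 at CCR7, was well above background on 5 of the 8 arrays and differed by 0.07 ± 1.57. Its sign turned under 8 alternatives, among them leaving out replicate 3 of 0 mM (-0.86) and values within slide 2 (-2.71). CCL14 differed by -0.37 ± 0.44, by -0.17 without replicate 2 of 0 mM, by -0.19 without replicate 3 of 0 mM, by -0.65 without replicate 1 of 0 mM and by -0.71 without replicate 3 of 5 mM. Without the muscle-rich arrays it was -0.98 (unadjusted p 0.0211 and adjusted p 1.00 in limma). CCL25, known from gut and thymus, differed by -0.87 ± 1.12, with 3 cows of 5 mM because 1 spot carried an outlier mark, by 0.27 without replicate 3 of 5 mM and by 0.10 without the muscle-rich arrays. CCL17 and CCL22, ligands of CCR4, were above background on 1 array each, replicate 2 of 0 mM, the cow whose CCL20 was also measurable.

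In the other chemokine families 6 of 13 tested genes were lower and 7 higher, with a median of 0.13. The 3 with the lowest unadjusted p were the interferon-induced CXCL11, CXCL10 and CXCL9, at -1.33 ± 0.26, -1.43 ± 0.37 and -2.21 ± 0.67, and at -0.24, -1.37 and -1.36 with the normexp correction. Each had no overlap between groups, 3 of 13, against 0.56% of tested genes, though CXCL11 was well above background on only 2 of the 4 arrays of 5 mM. Without the muscle-rich arrays CXCL9 was -1.11 (unadjusted p 0.107 in limma). Among cytokines, transcription factors and their regulators listed as chemokine inducers, 8 of 14 tested were lower, with a median of -0.07. None had an unadjusted p under 0.05 in limma. The count of lower genes includes NFKBIA (-0.57), which encodes an inhibitor of the transcription factor NF-kappaB and not an inducer. With slide as a block, IRF1 (unadjusted p 0.0172) and IL1A (unadjusted p 0.0255) were under 0.05, both with an adjusted p of 0.841 in limma. The lowest unadjusted p were those of IRF1 (-0.58 ± 0.32), TNF (-0.74 ± 0.41) and IL1A (-1.60 ± 0.97). Without replicate 1 of 5 mM, IL1A was -0.61 and IRF1 -0.29, and without replicate 2 of 0 mM TNF was -0.34. IFNG was above background on 1 array of 0 mM only, and IL4, IL13 and IL17A on none.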

How the data were processed

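The 8 arrays were of Agilent design 023647, with probe coordinates on HGSC Btau 3.1 per the file headers. The deposited spot intensities, on a linear scale, were background-subtracted by Feature Extraction. The file headers give its version as 11.5.1.1, whereas 10.5.1.1 stands in the submitters' processing notes. The deposited value table holds log2 values; its columns gave Pearson's r of at least 0.9995 with 75th-percentile-shifted values centred per probe, their medians lay between -0.023 and 0.13, and it served as an alternative.

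Spots for control or with outlier marks were dropped, spots of a probe were averaged, and the log2 75th percentile of each array was subtracted. Groups were compared without covariates by limma 3.58.1 (lmFit, eBayes) in R 4.3.3 over 31108 probes, after a test on simulated data. A gene with several probes was represented by the probe with the highest mean over all arrays, the others being given beside it. Symbols came from the files, brought up to date through RefSeq's genes of ARS-UCD2.0. The number of arrays limits the precision.

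The 10 genes, the gene and marker lists and the alternatives were chosen with earlier results of these data known. Named were all members with every probe, all measured receptors and other CC chemokines, the 3 lowest p of the remaining lists, and the 3 genes most like each member that was above background on all 8 arrays, symbols beginning with LOC left out. The results of 3 genes of these lists are not reported here, and the receptor and B cell lists were counted without them. The replicate numbers were not taken as pairs because the labels name separate cows and do not pair them. Same-numbered cows gave correlations of their deviations of 0.40, 0.36, -0.30 and 0.31, which do not settle whether they were paired. Alternatives were other normalizations (quantile, median shift, normexp with an offset of 50), the deposited table, other filters and moderation, array weights, the mean over probes, slide and replicate blocks, values within slides and leaving out each cow. Left out after seeing the data were the 3 muscle-rich arrays.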

Additional observations from a re-analysis of the deposited data

Results flagged for a closer look

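Within groups of 4 cows, 1 cow stood apart from the other 3 by Dixon's criterion at the 95% level in 9 of 66 groups of values tested, and chance gives about 1 in 20. Replicate 2 of 0 mM was the high cow in 4 of them. It read -1.62 at the first CCL4 probe against -3.50 to -3.45 in the other 3, -2.53 at the second CCL4 probe against -4.23 to -3.99, -1.25 at the second CCL8 probe against -3.04 to -2.74, and -2.56 at TNF against -4.30 to -4.08. Replicate 1 of 5 mM was the low cow at CCR3, with -5.50 against -4.33 to -4.11. Replicate 3 of 5 mM was low at the second CCL16 probe, with -6.54 against -3.84 to -3.59, and high at CCL14, with 0.76 against -0.66 to -0.60. Replicate 1 of 0 mM was low at the first CCL16 probe, with -3.14 against -2.05 to -1.86. Replicate 3 of 0 mM was high at CCL24, with -2.09 against -4.23 to -3.87. Probes of 1 gene and genes of 1 cow share their RNA, so these are not 9 separate signs.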

How the results depend on the processing

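No probe passed the threshold under any alternative that gave a test (0 to 0 with each cow left out in turn), and all 8 CC chemokine genes, or 7 of those tested, were lower under other normalizations, filters, moderation, weights and blocks. The count was 7 to 8, with a median of -1.06 to -0.35, when a cow was left out, and 5 within slide 3. With replicate number as a block, for cows that the labels do not pair, 0 probes passed, 1221 had an unadjusted p under 0.05 against 595, and 8 of 8 genes were lower. Receptors lower were 3 of 3 with a filter on all 8 arrays and 7 to 7 of 7 with cows left out, against 7. Other CC chemokines lower were 1 within slide 1, 4 within slide 2 and 1 within slide 3, against 2, and 2 to 3 with cows left out. Inducers lower were 13 without replicate 1 of 5 mM, 5 and 14 within slides 1 and 2 and 14 without the muscle-rich arrays, against 8, and 7 to 13 with cows left out. CXC, C and CX3C chemokines lower were 6 to 9 of 13 with cows left out and 5 of 10 with the filter on all 8 arrays. Outside the values within slides, signs turned for CCL19 (-0.84 with array weights, -0.33 with slide as a block, -2.40 without the muscle-rich arrays, -0.86 to 1.09 with cows left out), CCL24 (0.011 with slide as a block, -0.54 to 0.27 with cows left out), CCL2 (-0.76 to 0.14), CCL25 (-1.77 to 0.27, and 0.10 without the muscle-rich arrays) and CCL11 (-0.48 without those arrays). Within slides, where no test was run, signs also turned for CCL3 (0.03), CCL16 (0.26), CCR1 (0.81) and CCL14 (0.10) on slide 1, for CCL24 (0.11), CCL28 (0.54), CCL11 (-0.37), CCL19 (-2.71) and CCL21 (-0.14) on slide 2, and for CCL2 (0.70), CCL24 (0.30), CCL28 (0.03), CCL14 (0.28), CCL19 (-0.06) and CCL25 (0.22) on slide 3. The cause of these shifts was not tested. The normexp correction gave CCL8 -1.26 and CCL4 -0.67. The median of all probes moved by under 0.1 between scalings (0.02 to 0.08). Signal near background limits what can be said of CCL20 and CCL26. The same holds for CCL3, CCL4, CCL28, ACKR1, CCR4, ACKR2, CCL19, CCL21 and CXCL11, among others. Each had readings not well above background or a difference that shrank with the normexp correction. With it CCL3 went from -0.25 to -0.07, CCL28 from -1.26 to -0.48 and ACKR1 from -0.74 to -0.09. The 4 cows of each group limit every comparison.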
